A study of Mus musculus with 3 samples.

Results

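Olfactory and vomeronasal receptor genes were examined for H3K36me3 in germinal vesicle (GV) oocytes, the fully-grown mouse oocytes that still hold an intact nucleus. They were taken as the autosomal protein-coding genes of GENCODE M21 (GRCm38) whose symbol begins with Olfr, Vmn1r or Vmn2r, and number 1457 of the 20807 autosomal protein-coding genes: 1128 Olfr, 208 Vmn1r and 121 Vmn2r. A further 9 such genes are not on autosomes. The signal was measured in windows of 2 kb that the authors retained as valid, and 6981 of the 1186323 valid windows overlap a receptor gene by at least 1 base. The mark was mapped by native ChIP-seq for very small inputs, with 3 pools, each of about 280 wildtype GV oocytes of 25-day-old C57BL6/Babr mice, as the replicates of a single group. Each replicate is a pool of oocytes, so differences between single oocytes are not seen, and a smaller amount of antibody went into replicate 2. Whether the pools came from separate mice is not given in the labels, so the spread between replicates may be in part technical.

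Olfactory receptors detect odorants in the main olfactory epithelium, where each mature sensory neuron settles on a single receptor allele and keeps the rest silent. The vomeronasal receptors Vmn1r and Vmn2r do so in the vomeronasal organ, in neurons that signal through Gnai2 and Gnao1 respectively. Most of these genes lie in arrays of near relatives that arose by duplication, most have a coding sequence in a single exon (Vmn2r genes have several), and neurons silence the unchosen members within heterochromatin. H3K36me3 is laid down behind elongating RNA polymerase II and in oocytes marks transcribed gene bodies, where DNA methylation is gained. H3K4me3 marks promoters and, in oocytes, also broad domains elsewhere, and H3K27me3 is the mark of Polycomb repression.

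The promoters of receptor genes, taken here as the 250 bases before the RefSeq start, hold few CpG sites. A set of them is shown because the marks at gene starts described below are set beside this feature. RefSeq (GRCm38.p6) gave promoters for 1222 of the receptor symbols. The 250 bases before the RefSeq start are printed 5′ to 3′ with each CpG in capitals for Olfr829, Olfr691 and Olfr1423, which had some of the highest H3K36me3 of the olfactory receptors, for Olfr283, whose promoter has the most CpGs among the 15 named exceptions described below, for Vmn2r1, the most enriched of the textbook receptors, and for Olfr17, a textbook receptor with low signal. They lie at chr9:18856377-18856626 (plus strand), chr7:105337715-105337964 (minus), chr19:12036741-12036990 (minus), chr15:98379198-98379447 (minus), chr3:64081392-64081641 (plus) and chr7:107097217-107097466 (plus).
Olfr829: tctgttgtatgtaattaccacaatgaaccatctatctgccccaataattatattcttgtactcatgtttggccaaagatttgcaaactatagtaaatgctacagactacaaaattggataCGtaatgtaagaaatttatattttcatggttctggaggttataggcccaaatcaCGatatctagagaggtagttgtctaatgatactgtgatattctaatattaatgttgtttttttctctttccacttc
Olfr691: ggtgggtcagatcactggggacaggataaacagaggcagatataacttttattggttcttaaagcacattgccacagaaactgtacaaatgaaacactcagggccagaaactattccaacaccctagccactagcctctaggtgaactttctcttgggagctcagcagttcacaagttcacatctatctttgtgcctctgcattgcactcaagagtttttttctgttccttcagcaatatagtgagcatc
Olfr1423: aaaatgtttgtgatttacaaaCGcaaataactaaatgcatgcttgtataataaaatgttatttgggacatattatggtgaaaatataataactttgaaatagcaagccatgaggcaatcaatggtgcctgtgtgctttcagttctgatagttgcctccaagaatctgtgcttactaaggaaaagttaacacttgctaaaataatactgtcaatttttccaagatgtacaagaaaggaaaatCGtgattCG
Olfr283: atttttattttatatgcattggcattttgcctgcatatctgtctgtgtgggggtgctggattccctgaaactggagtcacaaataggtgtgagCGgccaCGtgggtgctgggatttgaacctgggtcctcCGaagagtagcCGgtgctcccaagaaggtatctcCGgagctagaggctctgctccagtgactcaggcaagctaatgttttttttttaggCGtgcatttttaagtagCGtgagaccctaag
Vmn2r1: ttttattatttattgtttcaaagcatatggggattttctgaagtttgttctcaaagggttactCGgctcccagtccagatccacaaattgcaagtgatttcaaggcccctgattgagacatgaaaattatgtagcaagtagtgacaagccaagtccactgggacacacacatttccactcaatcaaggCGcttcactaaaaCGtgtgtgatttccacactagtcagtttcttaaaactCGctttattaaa
Olfr17: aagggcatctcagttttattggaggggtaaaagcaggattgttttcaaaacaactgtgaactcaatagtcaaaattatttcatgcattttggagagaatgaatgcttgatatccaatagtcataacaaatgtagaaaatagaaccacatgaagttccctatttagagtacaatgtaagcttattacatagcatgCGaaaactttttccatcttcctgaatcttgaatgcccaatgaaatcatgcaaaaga
RefSeq and GENCODE place the starts of these genes differently. The printed stretches of Olfr829, Olfr691, Olfr1423, Olfr283 and Olfr17 lie inside the GENCODE gene, downstream of its start, and that of Vmn2r1 spans the GENCODE start. How many of the other receptor promoters lie inside the GENCODE gene was not counted. The CpG and motif counts given for receptor promoters therefore hold for RefSeq starts only. The printed promoters hold 2, 0, 3, 7, 4 and 1 CpGs in this order. Over all receptor promoters the median was 1 CpG in 250 bases, and 41.8% held none. Over all 31396 autosomal RefSeq promoters the median was 6, and 7.64% held none. Of the 15 named exceptions (the highest among genes with at least 2 valid windows and a level above 1 in each replicate), 6 have a promoter without CpG, among them Olfr691, Olfr76 and Olfr849. The 82 promoters of receptor genes with a mean level above 1 (the threshold explained below) had a median of 1 CpG, and so had the 1080 promoters of genes at or below it.

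Of the 1457 genes, 1385 kept at least 1 valid window and 1242 kept all of theirs, so 72 could not be measured. The loss was uneven between the families. Olfr genes lost 4 of 1128 genes and 130 of 4843 windows. Vmn1r genes lost 51 of 208 genes and 149 of 981 windows, and Vmn2r genes lost 17 of 121 genes and 525 of 1961 windows. In all, 89.7% of the windows over receptor genes were valid (exact 95% binomial interval 89.0 to 90.3%), against 96.8% over other autosomal protein-coding genes. A pair of arrays on chromosome 7 lost most. In Vmn1r91-Vmn1r183 only 17 of 65 genes and 57 of 159 windows were left, and in Vmn2r29-Vmn2r52 only 8 of 24 genes and 28 of 275 windows. Clusters are named here by their first and last member and join genes of a family less than 1 Mb apart, which gave 62 clusters of at least 2 genes and 16 single genes.

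The removed windows were rich in repeated sequence. The share of 75-mers (75 bases is the length of the reads) that occur once in the GRCm38 chromosomes had a median of 100% in valid Olfr windows, 99.02% in valid Vmn1r windows and 98% in valid Vmn2r windows. In removed windows it was 40.0% for Olfr, 20.7% for Vmn1r and 26.2% for Vmn2r. Valid windows still differed in this respect, and the level moved with it. Receptor windows with at least 99% unique 75-mers had a mean H3K36me3 of 0.427 ± 0.031 RPKM (SD, n = 3) over 3930 windows. Those with 90 to 99% had 0.284 ± 0.014, those with 50 to 90% had 0.179 ± 0.0076, and the 66 windows under 50% had 0.0523 ± 0.0049. How the authors treated reads that map to several places is not given in the sources used here, and its part in the levels was not tested.

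The values are RPKM (reads scaled to depth, here in windows of equal length) and steps of 1 read could be recovered: a single read was worth 0.136, 0.396 and 0.338 RPKM in replicates 1 to 3. Over all valid windows the libraries held between 2692510 and 7888140 reads, and receptor windows received 18717 reads in replicate 1, 6252 in replicate 2 and 6653 in replicate 3. At this depth the median receptor window had 2 reads in replicate 1 but 0 reads in replicates 2 and 3, and 60.1% of receptor windows had no read in replicate 2. A level above 1 in a single window takes 8 reads in replicate 1 and 3 reads in replicates 2 and 3, so single windows are imprecise and genes and clusters are given as means over windows. The oocyte identity of the pools was checked on markers. Of 14 oocyte genes such as Zp3, Kit and Gdf9, 13 had a mean above 1, and the median was 1.86, where 52.9% of all autosomal protein-coding genes with a valid window had a mean above 1. Of 10 granulosa and cumulus cell genes, 4 had a mean above 1 (median 0.624, range 0.353 to 2.02), namely Nr5a2 (2.02), Kitl (1.46), Cyp11a1 (1.27) and Inhba (1.05). Fshr, Foxl2 and Amhr2 were at 0.353, 0.420 and 0.354. The part of such cells in the levels was not tested. Between pairs of replicates, Pearson's r over the 6981 receptor windows, which share libraries and low depth, ran from 0.442 to 0.603.

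H3K36me3 over receptor genes was low. Over the 6981 receptor windows the replicate means were 0.364, 0.355 and 0.323 RPKM, or 0.347 ± 0.0219 (SD, n = 3). Windows of other protein-coding genes had 1.31, 1.32 and 1.36, a mean of 1.33 ± 0.030, so that receptor windows were 3.84-fold lower. The log2 ratio was -1.84, -1.90 and -2.08 in the 3 replicates, and the two-sided exact sign-flip permutation test gave p = 0.25, the smallest that 3 replicates allow. The difference was larger than the spread between replicates. It was -0.97 where log2(RPKM + 0.5) was averaged over windows and -0.93 over windows with at least 1 read in each replicate. On every one of the 17 autosomes that hold receptor windows, their mean was below that of other protein-coding genes.

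Receptor genes were also lower than intergenic sequence. Windows without any annotated gene had a mean of 0.560 ± 0.025 RPKM (n = 3), 1.61-fold above receptor windows, with a log2 ratio of -0.67, -0.67 and -0.72 (exact sign-flip permutation p = 0.25). Receptor windows were lower in 3 of 3 replicates. The mean was below that of intergenic windows on 15 of 17 autosomes, and above it on chromosome 15 (0.728 against 0.621) and chromosome 19 (0.556 against 0.539). The uniqueness of 75-mers was not computed for intergenic windows in general. Among receptor windows with at least 90% unique 75-mers the log2 ratio to intergenic windows was -0.56 ± 0.03. It was -0.25 where log2(RPKM + 0.5) was averaged and -0.32 over windows with at least 1 read in each replicate.

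**Figure D1:**
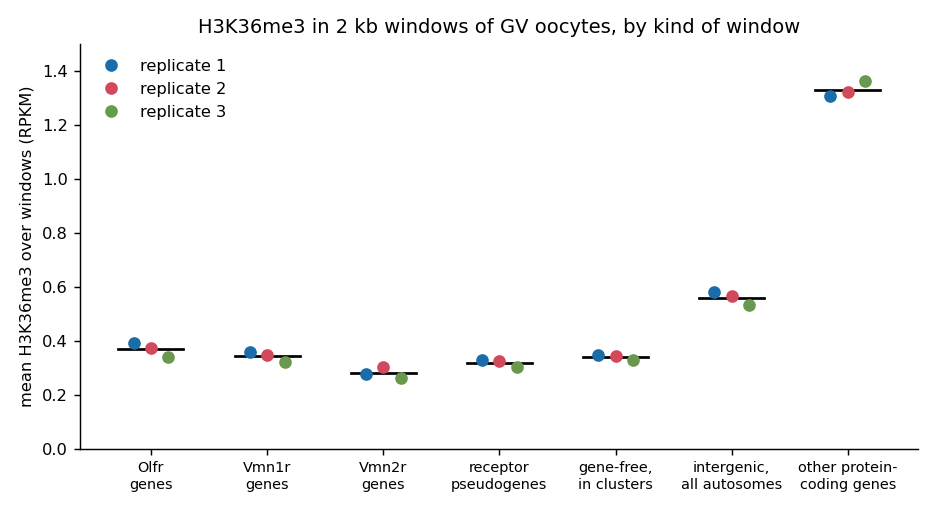
Mean H3K36me3 (RPKM, y axis) over windows of each kind (x axis), with a coloured point for each of the 3 replicates and a black line for their mean. Receptor genes, receptor pseudogenes and the gene-free windows of the same clusters sit between 0.263 and 0.392, below intergenic windows (0.560) and other protein-coding genes (1.33).

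Within their clusters, receptor genes and the sequence between them differed by less than the spread between replicates. The gene-free windows between the first and last member of a cluster had 0.348, 0.344 and 0.330 RPKM in the 3 replicates, a mean of 0.341 ± 0.0095 over 11540 windows. The log2 ratio of receptor windows to these was 0.06, 0.04 and -0.03, a mean of 0.02 ± 0.05 (exact sign-flip permutation p = 0.5). Receptor windows were higher in 2 of 3 replicates, so no direction can be given, and the log2 ratio was -0.05 where only windows with at least 90% unique 75-mers were used. Among the 53 clusters with at least 10 windows of both kinds, receptor windows had the higher mean in 31 and the lower in 22. Windows over annotated receptor pseudogenes, polymorphic pseudogenes included, had 0.319 ± 0.014.

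From the borders of the clusters outward the level rose by degrees. In the 33 clusters of at least 10 genes, the outermost 20 kb inside the cluster had a mean of 0.474 ± 0.042 RPKM (n = 3). The first 20 kb outside had 0.648 ± 0.0067, the next 0.898 ± 0.0289, and the bin at 160 to 180 kb outside had 1.26 ± 0.082, the highest of the 15 outside bins. In that bin 48.4% of windows were enriched, against 12.4% in the outermost 20 kb inside. The bin at 80 to 100 kb outside had 0.892 ± 0.030, where the mean over all autosomal windows was 0.910. Deeper inside the clusters, down to 300 kb, bins ranged from 0.362 to 0.552. Bins were not split by gene content, whose part in the rise was not tested.

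**Figure D2:**
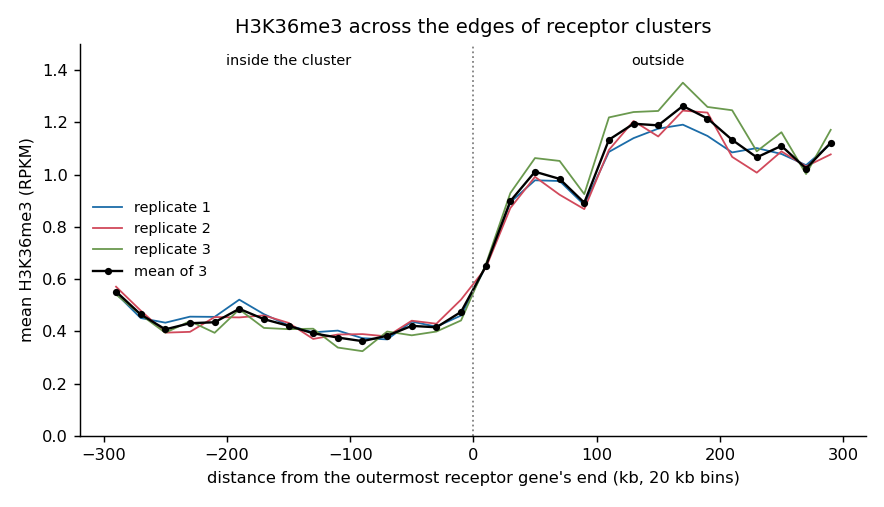
Mean H3K36me3 (RPKM, y axis) in 20 kb bins against the distance from the ends of the clusters (kb, x axis, negative inside), over 66 ends of 33 clusters, with a coloured line for each replicate and black points for their mean. All 3 replicates reach at most 0.571 inside and lie above 1 in every bin from 100 kb outward.

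Between the families the differences were small. Olfr windows had a mean of 0.392, 0.372 and 0.341 RPKM in the 3 replicates (0.368 ± 0.0261). Vmn1r windows had 0.357, 0.346 and 0.323 (0.342 ± 0.0173), and Vmn2r windows 0.276, 0.304 and 0.263 (0.281 ± 0.0208). Vmn2r windows were lower than Olfr windows in every replicate, by a log2 ratio of -0.39 ± 0.11 (exact sign-flip permutation p = 0.25, adjusted p = 0.25 over the 3 pairs of families). Vmn1r windows were lower than Olfr windows by -0.11 ± 0.03 and higher than Vmn2r windows by 0.29 ± 0.09, each in 3 of 3 replicates and with the same exact and adjusted permutation p = 0.25. The families also differ in how unique their windows are. With at least 99% unique 75-mers the means were 0.432 ± 0.034 for Olfr, 0.459 ± 0.034 for Vmn1r and 0.381 ± 0.019 for Vmn2r, so that Vmn1r was then the highest. With at least 90% unique 75-mers the log2 ratio of Vmn1r to Olfr was -0.02 ± 0.02 and that of Vmn2r to Olfr -0.26 ± 0.10. Over windows with at least 1 read in each replicate the order of Vmn1r and Vmn2r turned, with a log2 ratio of -0.19 ± 0.07. That of Vmn2r to Olfr was -0.00069 ± 0.135 there (exact sign-flip permutation p = 1), so the difference was not found in these windows. This filter selects windows by the measured signal itself, so it cannot decide whether the families differ.

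Along the gene the levels stayed low, and windows of intron only were the lowest. Receptor windows with coding sequence had a mean of 0.349 ± 0.022 RPKM, those with an exon but no coding sequence 0.369 ± 0.019 and those of intron only 0.299 ± 0.027. Windows that hold a gene start had 0.342 ± 0.035 and those with a gene end and no start 0.364 ± 0.023. Around Olfr starts, windows from 20 kb before to 20 kb after ranged from 0.321 to 0.418. Other protein-coding genes, in contrast, went from 0.740 ± 0.036 at the start window to 1.22 ± 0.019 in the window 4 kb downstream.

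Seen gene by gene, most receptors were far below the threshold of enrichment used in the study, a mean above 1 RPKM. The median gene level was 0.2496 for Olfr, 0.232 for Vmn1r and 0.179 for Vmn2r, against 1.25 for other protein-coding genes. A level under 0.5 was found in 1145 of 1385 genes (82.7%), against 27.9% of other protein-coding genes. No read at all was found in 38 genes. These had a median of 1.5 valid windows and at most 5, and 19 of them had a single window, so their value says little. The share of unique 75-mers in their windows had a median of 74.2%, against 97.7% over all receptor genes with a valid window. In a single window, 3 reads, the limit that a count of 0 allows, are worth 0.407 RPKM in replicate 1 and over 1 RPKM in the others. This limit covers counting error only, and PCR copies may be among the reads.

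**Figure D3:**
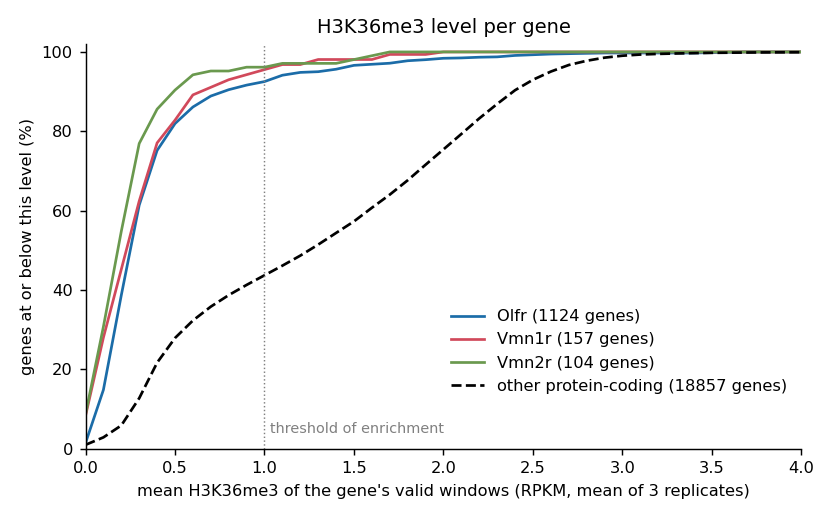
Share of genes (%, y axis) whose mean H3K36me3 over their valid windows and the 3 replicates is at or below a given RPKM (x axis), for Olfr, Vmn1r and Vmn2r genes and for other protein-coding genes (dashed). At the threshold of 1 (dotted line) 7.47% of Olfr, 4.46% of Vmn1r and 3.85% of Vmn2r genes lie above, against 56.3% of other genes.

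Enriched windows were correspondingly rare. H3K36me3 was called in 491 receptor windows, or 7.03% (exact 95% binomial interval 6.44 to 7.66%, counting error only), where 32.2% of all autosomal windows had the call and 15.5% of intergenic windows. The share was 7.60% for Olfr, 6.01% for Vmn1r and 5.78% for Vmn2r. Only 204 receptor windows (2.92%) were above 1 in each of the 3 replicates, against 20.1% of all autosomal windows. Of the 1385 genes, 95 had a mean above 1 (6.86%), where 52.9% of all autosomal protein-coding genes with a valid window did. They are 84 Olfr, 7 Vmn1r and 4 Vmn2r genes, and 57 of the 95 were above 1 in each replicate (4.12%, against 46.9%). Nearest to the threshold were Olfr844 (1.00 ± 0.30) and Olfr702 (1.00 ± 0.61) above it and Olfr206 (0.982 ± 0.394) and Olfr810 (0.976 ± 0.142) below it.

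Receptor genes above 1 had a nearest neighbour above 1 more often than the other receptor genes. Enriched windows ran together into 255 stretches with at least 1 receptor window. At least 5 windows were found in 37 of the 255, against 19618 of 69680 stretches over all autosomes. A single window made up 49.0% of the 255 stretches, against 41.8% of all autosomal stretches. The median stretch was 4 kb, as over all autosomes, and the longest was 44 kb. Only 6 of the 255 stretches (2.35%) reached an annotated protein-coding gene that is no receptor, against 55.2% of all autosomal stretches. In 230 (90.2%) there was no annotated gene besides receptors, against 35.8% of all autosomal stretches. The 255 stretches were chosen for a receptor window, and only 81 of the 6981 receptor windows hold another protein-coding gene. All autosomal stretches are therefore not a like set, and no conclusion is drawn from these 2 comparisons. Of the 725 windows in the 255 stretches, 188 held no gene at all. Of the 92 genes with a mean above 1 that have a measured neighbour in their cluster, 43 (46.7%) had a nearest neighbour above 1 as well, against 48 of 1276 (3.76%) of the genes at or below 1. Neighbours can share a window, and neighbouring windows are not independent, so no test was made. The same share was not computed for other protein-coding genes.

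The nearest other protein-coding gene lay at a median of 129 kb for genes above 1 (quartiles 32.8 and 256.2 kb) and of 133 kb for the rest (quartiles 52.5 and 275 kb). Windows of genes above 1 had a median of 100% unique 75-mers, and those of the rest 99.6%. The repressive mark was scarce on them. H3K27me3 was called in 1.34% of the windows of genes above 1 and in 18.2% of the windows of the rest. Over receptor windows as such, H3K27me3 was called in 7.74% of those with H3K36me3 and in 17.8% of those without. Over all autosomal windows these shares were 7.90% and 41.4%. The 95 genes were found in 25 places, counting clusters and single genes, and 57 of them lie in 5 clusters, which hold 493 of the 1457 genes.

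These 5 clusters are Olfr693-Olfr519 on chromosome 7 with 15 genes above 1, Olfr1417-Olfr1505 on chromosome 19 with 12, and Olfr24-Olfr18, Olfr160-Olfr986 (both chromosome 9) and Olfr987-Olfr1274-ps (chromosome 2) with 10 each. At least 2 valid windows and a level above 1 in every replicate were found in 53 receptor genes, or 53 of the 1320 with at least 2 valid windows, where 48.2% of all such autosomal genes passed. The 15 highest of these 53 are all olfactory receptors. Olfr692 and Olfr1164 (2.47 ± 0.48), named after their values were seen, are not among them because each has a single valid window.

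Olfr829, on chromosome 9 (chr9:18854933-18859080), was the highest of the 15, with 3.89, 2.91 and 3.84 RPKM in replicates 1 to 3 (3.54 ± 0.55, 142 reads in 3 windows). It stood alone in a stretch of 16 kb with no other annotated gene, and the nearest other protein-coding gene, Muc16, was 180 kb away. Olfr849, in the same cluster, had 2.21, 3.07 and 2.28 (2.52 ± 0.48), with the gene model Gm23048 in its stretch of 12 kb. On the same chromosome Olfr251 had 2.14, 1.98 and 3.21 (2.45 ± 0.67) and Olfr878 had 2.17, 2.28 and 2.54 (2.33 ± 0.19), the narrowest spread of the 15.

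On chromosome 19, in the cluster Olfr1417-Olfr1505, 4 of the 15 lay within a short stretch of genome. Olfr1423 (chr19:12031787-12041317) had 2.15, 3.77 and 2.14 RPKM (2.69 ± 0.93), the high value coming from replicate 2, in a stretch of 36 kb that also holds the pseudogenes Olfr1421-ps1 and Olfr1422-ps1 and the gene models Gm45115, Gm45116 and Gm44859. Olfr1427 had 2.31, 2.64 and 2.03 (2.33 ± 0.31) and shared a stretch of 20 kb with Olfr1426 and Olfr1428. Olfr1428 had 2.23, 1.82 and 2.44 (2.16 ± 0.31). Olfr76 (chr19:12117996-12123203) had 2.58, 2.38 and 3.47 (2.81 ± 0.58) and shared a stretch of 30 kb with Olfr1428. Neither of the last stretches holds any other annotated gene, and all 4 genes were above 1.8 in each replicate.

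On chromosome 7, 3 of the 15 lay next to each other near the last member of Olfr543-Olfr692, the cluster of the class I receptors, which resemble the receptors of fish. Olfr689, Olfr690 and Olfr691 shared a stretch of 34 kb with the gene model Gm45331. Olfr691 (chr7:105335509-105342270) had 2.42, 2.77 and 3.05 RPKM (2.75 ± 0.32), Olfr689 had 1.85, 2.62 and 3.05 (2.50 ± 0.61), and Olfr690 had 2.51, 1.78 and 2.62 (2.31 ± 0.46). The last member, Olfr692, lay in the following stretch of 42 kb, which reaches Fam160a2 and the pseudogene Gm5901. It is named here after its values were seen: it has a single window, with 2.04, 6.74 and 2.03 RPKM, and its mean of 3.60, the highest of all receptor genes, rests on replicate 2. The cluster as such was low, with 0.304 ± 0.0058 over 523 windows.

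The other 4 of the 15 lie apart. Olfr520 (chr7:99730273-99736399) had 2.72, 3.07 and 4.48 RPKM (3.42 ± 0.94), in the longest stretch of all, 44 kb, which it shares with Slco2b1, an organic anion transporter gene 18.9 kb away, and with Gm34280, Gm44551 and Gm19182. Olfr283 on chromosome 15 had 2.53, 2.51 and 2.14 (2.40 ± 0.22) and no other gene in its stretch of 14 kb. Olfr49, a single gene on chromosome 14 with Abhd4 at 7.62 kb, had 1.22, 1.88 and 3.55 (2.22 ± 1.20), and Olfr698 on chromosome 7 had 1.12, 1.09 and 4.15 (2.12 ± 1.76). In Olfr49 and Olfr698 the mean rests on replicate 3, although each replicate was above 1. Of the 15 genes, 14 have no other annotated gene in their own windows, the exception being Olfr1423 with Gm44859, and 9 lie in stretches without any other annotated gene.

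**Figure D4:**
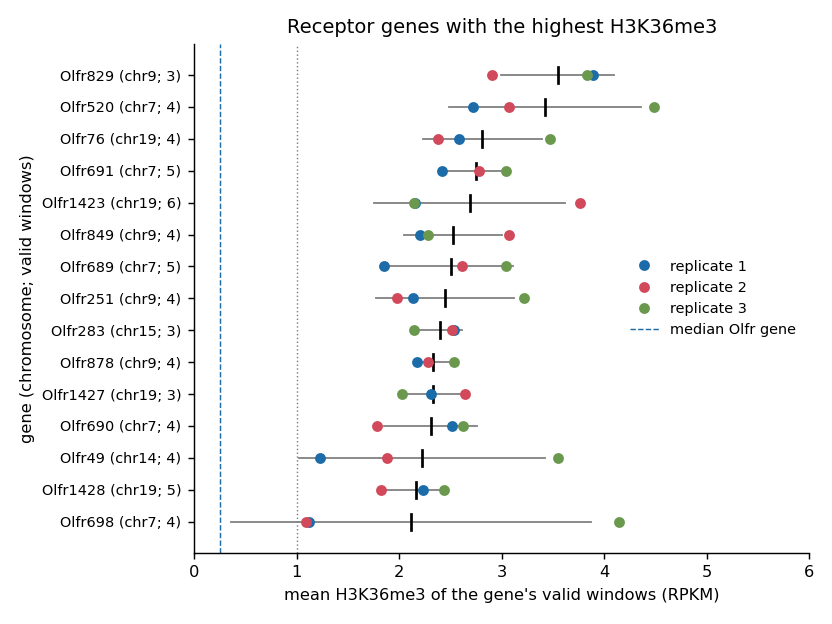
Mean H3K36me3 (RPKM, x axis) of the 15 receptor genes with the highest level among those with at least 2 valid windows and a level above 1 in each replicate (y axis, with chromosome and number of valid windows), with a point for each replicate, a black tick for the mean and a grey line for ± 1 SD (n = 3). Every point lies above the threshold of 1 (dotted) and above the median Olfr gene (dashed, 0.2496). The points of Olfr698 and Olfr49 are spread widest.

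Vomeronasal exceptions were fewer and lower, and those described here, Vmn2r1 aside, were named after their values were seen. Vmn1r233 on chromosome 17 had 2.04, 2.18 and 1.52 RPKM (1.91 ± 0.35), Vmn1r76 on chromosome 7 had 1.46, 1.59 and 1.92 (1.66 ± 0.24), and Vmn1r196 on chromosome 13 had 1.18, 1.39 and 2.26 (1.61 ± 0.57). Among the longer Vmn2r genes, Vmn2r90 had 1.61, 1.61 and 1.71 (1.64 ± 0.060, 356 reads in 17 windows), which makes it the best covered of the vomeronasal exceptions. Vmn2r53 had 1.26, 1.49 and 1.71 (1.49 ± 0.22). Its small cluster, Vmn2r53-Vmn2r56, was the highest of the Vmn2r clusters, at 0.979 ± 0.094 with H3K36me3 in 25 of 53 windows.

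Textbook receptors were read from a list. Of 20 listed, 19 could be measured, since Olfr151 is annotated as a polymorphic pseudogene in GENCODE M21 and is not a member. The median was 0.288 RPKM, and 2 of the 19 had a mean above 1, where the share was 6.86% over receptor genes and 52.9% over all autosomal protein-coding genes. Vmn2r1, a co-receptor that vomeronasal neurons express together with other Vmn2r genes, had 1.032, 1.74 and 2.01 RPKM (1.59 ± 0.50) and was the only one above 1 in each replicate, with H3K36me3 in 11 of 15 windows. Its cluster mates did not share this. Vmn2r2 had 0.338 ± 0.149, Vmn2r3 0.291 ± 0.158, Vmn2r4 0.0707 ± 0.0683 and Vmn2r6 0.0113 ± 0.0196, and Vmn2r5 had no read in its 2 windows. Vmn2r7, the Vmn2r gene with the most valid windows (58), had 0.235 ± 0.082 and H3K27me3 in 12 of them.

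Olfr2, a receptor for octanal, had 1.01, 0.906 and 1.50 RPKM (1.14 ± 0.32), above 1 in 2 of 3 replicates. Olfr1507 had 0.611, 1.59 and 0.338 (0.845 ± 0.656), a spread nearly as large as its mean. Olfr17 (0.290 ± 0.114), Olfr16, a lyral receptor also found in sperm (0.221 ± 0.131), Olfr73, a receptor for eugenol (0.464 ± 0.380), and Olfr15 (0.288 ± 0.073) were low. So were the class I members Olfr78, known from the carotid body (0.285 ± 0.073), Olfr544 (0.337 ± 0.157) and Olfr558 (0.131 ± 0.074), of which Olfr558 had H3K27me3 in all 6 of its windows and Olfr16 in all 5. Olfr160 had 0.383 ± 0.360 and no read in replicate 3. Vmn2r26 (0.286 ± 0.066) and Vmn2r116, the receptor of a male tear pheromone (0.171 ± 0.020), were also low. The Olfr gene with the most valid windows, Olfr643 (63), had 0.251 ± 0.050 and H3K27me3 in 40 windows, and its Vmn1r counterpart Vmn1r68 (27 windows) had 0.313 ± 0.011.

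The genes that serve these receptors were measured as well, from a list. Of 26 genes for signalling and receptor choice, 10 had a mean above 1 (the share over all autosomal protein-coding genes is 52.9%), and 9 were above 1 in each replicate. Among them were Ano2, the chloride channel of olfactory cilia (2.80 ± 0.20), Trpc2, the channel of vomeronasal neurons (2.35 ± 0.64), Cnga4 (1.89 ± 0.31) and Cngb1 (1.74 ± 0.29), subunits of the cyclic nucleotide-gated channel, and Kdm1a, a histone demethylase that acts in receptor choice (1.63 ± 0.13). Gnai2, the G protein of Vmn1r neurons, had 1.58 ± 0.027, and Gnao1, that of Vmn2r neurons, 0.323 ± 0.063 with H3K27me3 in 77 of 81 windows. The transcription factors Ebf1 (0.253 ± 0.060), Ebf2 (0.330 ± 0.039), Ebf3 (0.350 ± 0.060) and Lhx2 (0.538 ± 0.163), which bind receptor promoters and enhancers, were low, with H3K27me3 in 188 of 197 windows of Ebf1. H3K27me3 was called in at least 1 window of 19 of the 26 genes, and of 44.2% of protein-coding genes other than receptors. The 26 genes hold from 2 valid windows (Omp) to 197 (Ebf1), and other protein-coding genes a median of 10. More windows make at least 1 call more likely, so no conclusion is drawn from these shares. Of the 5 markers of olfactory neurons, Omp, Gnal, Adcy3, Cnga4 and Rtp1, only Cnga4 was above 1.

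Most receptor windows carried none of the 3 marks. No mark was called in 4779 of 6981 windows, or 68.5% (exact 95% binomial interval 67.4 to 69.5%), where 25.4% of all autosomal windows, 34.6% of intergenic windows and 14.6% of windows of other protein-coding genes were unmarked. The gene-free windows of the clusters were alike, with 70.8%. The share was 62.2% for Olfr, 75.1% for Vmn1r and 85.2% for Vmn2r. In 522 of 1385 genes (37.7%) every valid window was unmarked, against 3.39% of other protein-coding genes. Receptor genes had a median of 4 valid windows and other protein-coding genes 10, and fewer windows make such a gene more likely. H3K4me3 and H3K27me3 were called by the authors from earlier libraries without replicates here, so their shares have no replicate error and the intervals cover counting only. The share was 64.4% among receptor windows with at least 90% unique 75-mers.

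H3K27me3 was called in 1192 receptor windows, or 17.1% (16.2 to 17.98%), against 30.6% of all autosomal windows. It was found in 22.1% of Olfr windows (20.9 to 23.3%), 10.9% of Vmn1r windows (8.90 to 13.3%) and 4.11% of Vmn2r windows (3.14 to 5.27%). These intervals do not overlap, but neighbouring windows are not independent. The share of H3K27me3 also rose with the uniqueness of sequence measured above. It was 0% in the 66 receptor windows under 50% unique and 4.00% from 50 to 90%. From 90 to 99% it was 12.0%, and with at least 99% it was 23.3%. In this last class it was 27.6% for Olfr, 17.1% for Vmn1r and 7.41% for Vmn2r, the same order. Uniqueness was not computed for all autosomal windows, and its part in these differences was not tested. H3K4me3 was called in 720 receptor windows, or 10.3%, against 28.7% of all autosomal windows, and in 11.9% of Olfr, 9.50% of Vmn1r and 5.43% of Vmn2r windows. H3K4me3 and H3K27me3 without H3K36me3 were called together in 125 receptor windows (1.79%, against 9.23% of all autosomal windows), and all 3 marks in 2 (0.029%, against 0.533%).

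Gene starts had little H3K4me3. It was called in 166 of 1357 receptor windows with a gene start (12.2%) and in 9.39% of receptor windows with neither start nor end, whereas 82.2% of the start windows of other protein-coding genes carried it. H3K27me3 was called in 18.9% of receptor start windows. H3K4me3 and H3K27me3 at starts went with CpG content, here in windows that hold a RefSeq start. Start windows of receptor promoters without CpG had H3K4me3 in 7.60% and H3K27me3 in 15.2% of 500 cases. With 2 to 4 CpGs the shares were 14.9% and 29.8% of 242, and with 5 or more CpGs 37.5% (9 of 24) and 66.7% (16 of 24). Other promoters without CpG had H3K4me3 in 31.3%, so at equal CpG count receptor starts still had the lower share. H3K36me3 at these starts was 0.370, 0.372 and 0.329 RPKM in the 3 replicates without CpG and 0.555, 0.446 and 0.338 with 5 or more. The 24 windows of the second class were higher in each replicate, but hardly so in replicate 3, and the difference was not tested. The classes between showed no rise with CpG count. Their means were 0.336 ± 0.012 with 1 CpG and 0.348 ± 0.066 with 2 to 4, against 0.357 ± 0.024 without CpG.

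In the 250 bases before the RefSeq start a pair of motifs was searched, both of which read the same on either strand. The Ebf motif CCCNNGGG was present in 3.91% of receptor promoters and in 12.0% of all promoters, but in 23 of 115 Vmn2r promoters against 25 of 929 Olfr promoters. The homeodomain motif TAATTA was present in 16.5% of receptor promoters and in 4.81% of all. Receptor promoters had a median GC content of 34.4%, all promoters 52.4%, and the part of base composition in these shares was not tested. Among the printed promoters, Olfr829 holds TAATTA at 2 places and the others hold neither motif.

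The clusters differed widely in their marks. Of the 45 clusters of at least 5 genes, none had a mean H3K36me3 above 1 and none had a larger share of enriched windows than all autosomal windows, 37 had at least 1 enriched window, and over 50% of the windows were unmarked in 32. Of the 6 clusters with the most valid windows, Olfr987-Olfr1274-ps, the largest (876 windows, 227 genes), had 0.291 ± 0.026 RPKM, with H3K36me3 in 4.79% and H3K27me3 in 14.4% of windows. The class I cluster Olfr543-Olfr692 had H3K27me3 in 34.8% and H3K4me3 in 16.8% of 523 windows. Olfr160-Olfr986 (0.399 ± 0.011) had H3K36me3 in 10.2% and H3K27me3 in 17.8%. Olfr1417-Olfr1505 (0.556 ± 0.0033) and Olfr693-Olfr519 (0.528 ± 0.070) had H3K36me3 in 15.7% and 16.9%. Vmn2r90-Vmn2r110 had 0.288 ± 0.0098, with H3K27me3 in 0.824% of 364 windows and no mark in 86.8%.

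At the extremes of these 45 clusters, Olfr288-Olfr279 on chromosome 15 had the largest share of H3K36me3, 22.7% of 44 windows, together with H3K27me3 in 56.8% and H3K4me3 in 68.2%. Again among the 45, Olfr70-Olfr155 on chromosome 4 had the largest shares of H3K27me3 (90.5%) and H3K4me3 (71.4%) of 21 windows, 13 of them with both. In both of these clusters 0 windows were unmarked, which with 44 and 21 windows allows a share of up to 6.82% and 14.3%. Among the 45 clusters H3K36me3 was called in 0 windows of 8, of which Vmn2r57-Vmn2r63 has the most windows (140, which allows up to 2.14%). H3K27me3 was called in 0 windows of Vmn1r32-Vmn1r39, Vmn1r55-Vmn1r65, Vmn2r8-Vmn2r17, Vmn2r29-Vmn2r52 and Vmn2r111-Vmn2r117, which with 109 windows in Vmn2r8-Vmn2r17 allows up to 2.75%. H3K4me3 was called in 0 windows of Olfr1378-Olfr1375, Olfr164-Olfr171, Olfr172-Olfr209 and Vmn2r29-Vmn2r52, which with 86 windows in Olfr172-Olfr209 allows up to 3.49%. Vmn2r111-Vmn2r117, at 0.106, 0.0977 and 0.107 RPKM in the 3 replicates, was the lowest cluster of at least 5 genes in H3K36me3. The gene-free windows inside it had a mean of 0.405. Of the 100 receptor windows of this cluster 73 were valid, with a median of 88.45% unique sequence. Receptor levels fell with falling uniqueness, as described above, and the part of uniqueness in this difference was not tested.

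**Figure D5:**
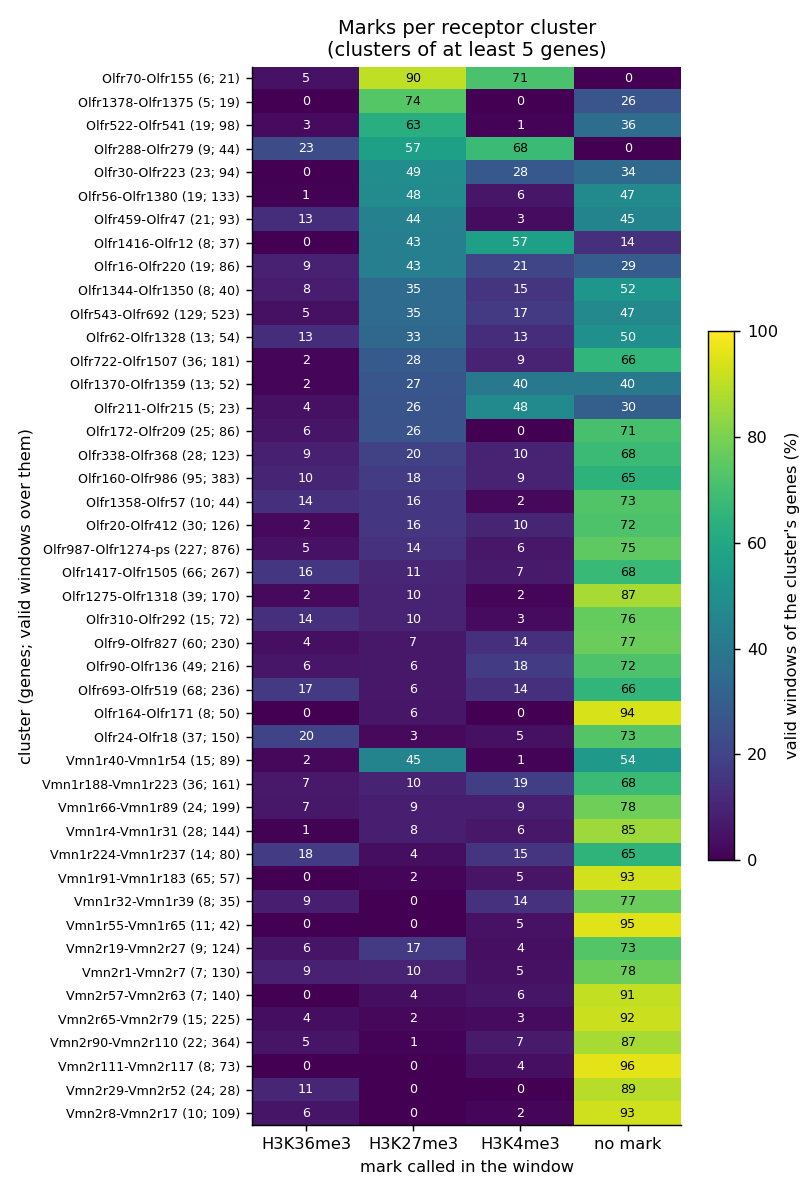
Share of valid windows (%, colour and number) with H3K36me3, H3K27me3, H3K4me3 or no mark (x axis) in each of the 45 receptor clusters of at least 5 genes (y axis, with the number of genes and of valid windows). A window can carry several marks. H3K27me3 runs from 0% to 90.5% between clusters, and high unmarked shares are most frequent among the Vmn2r clusters at the bottom.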

How the data were processed

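H3K36me3 was measured in 3 replicate pools of GV oocytes (1 group). Per the methods of the study, 75 bp single-end reads were mapped to GRCm38 with Bowtie2 2.2.9 and counted in 2 kb windows in SeqMonk, and windows with extreme input signal were removed. The authors deposited RPKM values per window and replicate, linear, and 1 call per window of H3K36me3, H3K4me3 and H3K27me3. Every RPKM value was a whole multiple of 1 read (100% within 0.01 reads). The column totals are closer to those of CPM than of RPKM, so levels are compared only within this table. Treatment of duplicates and multi-mapping reads is not given in the sources used here.

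Windows were assigned by overlap with GENCODE M21 genes. Levels are means over windows per replicate, and enrichment is a mean above 1 RPKM, which differed from the deposited call in 0 windows. Log2 ratios per replicate were tested over the 3 replicates by exact permutation of their signs, two-sided (smallest p 0.25), adjusted by Benjamini-Hochberg over the 3 pairs of families. Shares have exact (Clopper-Pearson) 95% intervals, and a share of 0 is given the limit of 3 counts. The share of unique 75-mers was counted in the GRCm38.p6 chromosomes, and promoters are from RefSeq. The named genes are the 15 highest of those with at least 2 valid windows and a level above 1 in each replicate, the gene with the most windows per family, textbook receptors, other genes in the enriched windows, and the largest and most extreme clusters. Members and lists were chosen with earlier results of these data known. Alternatives were another assignment of windows, a pseudocount, filters on reads and genes, stricter thresholds, leaving out each replicate and a minimum of uniqueness. Scripts were tested on simulated data and ran under Python 3.11.15, numpy 2.4.6, pandas 2.3.3, scipy 1.17.1 and matplotlib 3.10.9.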

Additional observations from a re-analysis of the deposited data

How the results depend on the processing

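Of 74 alternatives over all results, 61 kept the direction of a ratio or left a share or count near its value, 9 moved a share or a count and 4 turned a direction. Ratios could keep their direction and shrink. Over windows with at least 1 read in each replicate, Vmn2r to Olfr went from -0.39 to -0.00069, receptor to other coding windows from -1.94 to -0.93 and receptor to intergenic windows from -0.69 to -0.32, and with log2(RPKM + 0.5) averaged these were -0.13, -0.97 and -0.25. The log2 ratio of receptor windows to the gene-free windows of their clusters turned to -0.016 with windows assigned by their midpoint, to -0.034 over windows with at least 1 read in each replicate and to -0.054 with at least 90% unique 75-mers, and that of Vmn1r to Vmn2r windows turned to -0.19 over windows with at least 1 read in each replicate. The filter on reads selects windows by the measured signal itself. The pseudocount of 0.5 is larger than the receptor mean of 0.347, so it shrinks ratios by construction. The cause of the turned directions was not tested. The share of receptor windows with H3K36me3 was 3.55% above 1.5 RPKM, 1.76% above 2 RPKM and 2.92% above 1 in each replicate, and the genes above the threshold then numbered 43, 18 and 57, fewer by construction. With at least 90% unique 75-mers, an alternative chosen after seeing the data, H3K27me3 was called in 19.5%, H3K4me3 in 11.6% and no mark in 64.4% of receptor windows. Without 1 replicate, the count of genes above 1 ran from 86 to 98 and the share of H3K36me3 windows from 7.43% to 7.85%. Each ratio is already taken within a replicate, so no further fit with a replicate block was made. Depth limits single windows and genes of 1 or 2 windows most.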

Other observations

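The 9 receptor genes on chromosome X were left out of the comparisons above. Olfr1324 had 2.06, 2.38 and 2.30 RPKM in the 3 replicates (2.25 ± 0.16, SD, n = 3), with H3K36me3 in 5 of 5 windows and no H3K27me3. At lower coordinates of the chromosome, Olfr1320 (1.01 ± 0.24) and Olfr1321 (0.915 ± 0.206) had H3K27me3 in 7 of 7 and 5 of 7 windows. Olfr1320 had H3K36me3 in 4 of its 7 windows. The other 6 genes ranged from 0.267 (Vmn2r121) to 0.610 (Olfr1323).

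Other chemoreceptor families were also measured, again on autosomes. Over all autosomal protein-coding genes with a valid window, 52.9% had a mean above 1. Trace amine-associated receptors (Taar), which sense volatile amines, had a median gene level of 0.355 RPKM, with 2 of 15 genes above 1. The bitter taste receptors Tas2r had 0.268 (3 of 35) and the formyl peptide receptors Fpr 0.219 (1 of 7). Only 7 of the 15 Taar and 17 of the 35 Tas2r genes have at least 2 valid windows, so many of these levels rest on a single, imprecise window. The sweet and umami receptors Tas1r had 1.50 (2 of 3), and Ms4a genes, a family that includes chemoreceptors of necklace olfactory neurons, 0.494 (7 of 19). Genes with a symbol in Zfp, another large family that lies partly in clusters, had 1.23, with 219 of 376 above 1, against 95 of 1385 olfactory and vomeronasal receptor genes.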
